A study of Mustela putorius furo with 10 samples.

Results

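Septins are a family of GTP-binding cytoskeletal proteins, and 10 family members (SEPTIN1, SEPTIN2, SEPTIN4 to SEPTIN11, formerly SEPT1 and so on) were examined in ferret peripheral blood mononuclear cells (PBMC), the lymphocyte and monocyte fraction of blood. Members were chosen by name, through the RefSeq gene that lists the accession of each array sequence. The rule uses no measured value, but the family was picked with earlier results of these data known. Of the 10, 9 were found on the arrays and tested, among 26303 genes tested in all. SEPTIN11 was matched to none of the target sequences. The 9 genes were covered by 25 of 45328 target sequences (transcript models, each with 4 probes) and by 100 of 181312 probes. Of the remaining family members, SEPTIN12 was found, and SEPTIN3 and SEPTIN14 were not matched.

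Male ferrets (Mustela putorius furo), 3 months old, formed 2 groups. Control ferrets (n = 6) were kept at 22 °C and cold-exposed ferrets (n = 4) at 4 °C for 1 week. All had free access to food and water. The cold ferrets were housed singly, whereas the labels do not give the housing of the controls, so that temperature and housing cannot be told apart where housing differed. PBMC of each ferret were isolated on a Ficoll gradient, and their RNA was labelled with the green dye Cy3 and hybridised to an Agilent array of its own. A pool of PBMC and other ferret tissues, labelled with the red dye Cy5, was the common reference on every array. Levels are given as the log2 ratio of Cy3 to Cy5 after loess normalization, which takes out each array's trend of the ratio with signal intensity. A positive value stands for a ratio above that trend. The sign does not tell whether the ferret or the reference gave more signal. A change is the mean log2 ratio of the cold arrays minus that of the control arrays. Ratios of different genes cannot be set against each other as RNA levels, since each depends on the content of the pool.

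Septins of different groups assemble side by side into rod-shaped complexes, and the rods join into filaments, bundles and rings beneath the membrane. These structures bind actin, microtubules and phospholipids, and act as scaffolds and diffusion barriers at the cleavage furrow of dividing cells. SEPTIN7 is the sole member of its own group and is needed in the rods of most cells. In lymphocytes, the septin cortex is known for keeping the cell surface stiff during migration and for its part in division.

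The septins differed in how well they were measured. All probes of SEPTIN1, SEPTIN2, SEPTIN4, SEPTIN7 and SEPTIN9 passed the filter, for which the scanner software had to rate Cy3 well above background on 4 arrays or more. For SEPTIN5, 3 of 4 probes passed, for SEPTIN6 3 of 12, for SEPTIN8 6 of 20 and for SEPTIN10 6 of 8. No probe passed for 2 of the 5 target sequences of SEPTIN8. No septin probe was saturated. The reference was dimmer. Cy5 was well above background on all 10 arrays for every probe of SEPTIN1, SEPTIN2, SEPTIN4 and SEPTIN9 and for 6 of the 12 SEPTIN7 probes, but for no probe of SEPTIN5 or SEPTIN6, 3 probes of SEPTIN8 and 1 of SEPTIN10. For SEPTIN7, the arrays that fell short in Cy5 were all control arrays. Its probe with the fewest cleared background in Cy5 on 2 control and 4 cold arrays, which limits the SEPTIN7 ratio. Across whole arrays, 50.4 to 63.5% of the spots had Cy3 well above background in the control group and 58.0 to 61.1% in the cold group. For Cy5 the share was 27.0 to 54.9% in the control group and 40.5 to 64.0% in the cold group.

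SEPTIN1 and SEPTIN7 were the 2 septins whose cold arrays all lay below the lowest control array. Both were lower in cold by about the same amount (change of -0.52 and -0.54, a cold level of 0.70 and 0.69 times the control level), and none of the other 7 members tested passed the unadjusted threshold of p under 0.01 in limma. With Benjamini-Hochberg adjustment over all genes, no septin passed 0.05 in limma. Nor did any of the 26303 genes (0%), although 2272 (8.64%) had an unadjusted p under 0.01 and 901 (3.43%) had one and were lower in cold. At the unadjusted threshold, 2 of 9 septins (22.2%) were called. The SEPTIN7 value includes a sequence that the study had listed from these same arrays, so that counts with SEPTIN7 are not independent evidence. Groups that did not overlap, with cold lower, were seen in the same 2 of 9 septins and in 2.15% of all genes. The median change was -0.06 over the 9 septins and -0.01 over all genes tested. With arrays centred on their median these were -0.73 and -0.43, and in the deposited value table -0.26 and 0.012. Leaving out each array in turn gave a septin median of -0.099 (without cold replicate 2) to -0.017 (without cold replicate 3).

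**Figure D1:**
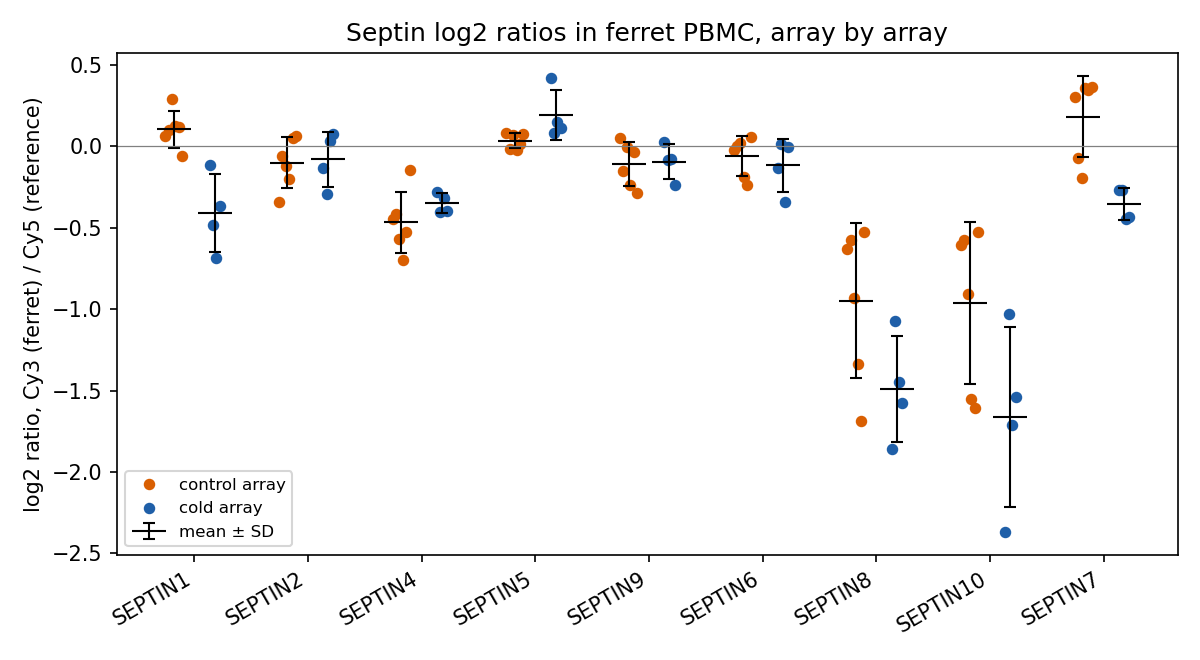
The log2 ratio of Cy3 (ferret) to Cy5 (reference) after loess is plotted for each of the 9 septins, with 1 point per array (6 control, 4 cold) and the mean ± SD of each group in black. The cold points of SEPTIN1 and SEPTIN7 lie below all control points, those of SEPTIN5 lie just above them, and those of the other 6 septins overlap with the control points.

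The SEPTIN2 group comprises SEPTIN1, SEPTIN2, SEPTIN4 and SEPTIN5, which can take the same place in a septin rod. SEPTIN1 (gene ID 101691669), a member with high expression in lymphocytes, had log2 ratios from -0.06 to 0.29 with a median of 0.11 in the control arrays. In cold replicates 1 to 4 its log2 ratio was -0.11, -0.48, -0.69 and -0.36. Cold replicate 1 lay just under the lowest control, replicate 6, and cold replicate 3 lay furthest from the controls. The mean of the control arrays was 0.11 ± 0.11 (SD, n = 6) and that of the cold arrays -0.41 ± 0.24 (SD, n = 4). The change of -0.52 (SE 0.11) had an unadjusted p of 0.00069 and an adjusted p of 0.0705 in limma, and an exact two-sided permutation p of 0.00476, the smallest that 210 splits of the arrays allow. All 4 probes of SEPTIN1 were lower in cold, by -0.55 to -0.45.

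The ferret's own channel gave the same direction for SEPTIN1. With Cy3 alone, quantile normalized between arrays, its log2 signal was 13.9 to 14.4 in control and 12.4 to 13.8 in cold, without overlap. The change of log2 Cy3 was -0.90 (SE 0.22), with an unadjusted p of 0.00158 and an adjusted p of 0.0520 in limma. With this measure, 9.84% of all genes had an unadjusted p under 0.01, 2.82% an adjusted p under 0.05, and 3.46% groups that did not overlap with cold lower. Before normalization, the Cy3 signal of SEPTIN1 was 6864 and 8731 intensity units in cold replicates 3 and 4, and 15091 and 15368 in cold replicates 1 and 2. The control range was 13557 to 20153, so that before normalization the first 2 cold arrays lay inside the control range and the other 2 below it. The Cy5 signal of SEPTIN1, which comes from the shared pool, was brighter in cold before normalization, with a median of 567 units in control and 2038 in cold. After quantile normalization its log2 value changed by -0.27 (limma, unadjusted p = 0.0672). Its part in the ratio was not tested.

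SEPTIN2, a septin of dividing cells and of the base of the cilium, had overlapping groups. Its log2 ratio was -0.34 to 0.07 in control, with a median of -0.09, and -0.13, -0.29, 0.03 and 0.08 in the cold replicates. The change was 0.02 (SE 0.11, adjusted p = 0.927 in limma). SEPTIN4, known for the annulus of the sperm tail and for a short form that promotes apoptosis, had log2 ratios of -0.70 to -0.15 in control, with a median of -0.49, and of -0.28, -0.40, -0.32 and -0.40 in cold. The cold values of SEPTIN4 lay inside the control range. Its change was 0.12 (SE 0.10, adjusted p = 0.502 in limma), with 17 of its 20 probes higher in cold and 3 lower. With Cy3 alone the SEPTIN4 change was -0.03, so that its direction turned with the measure.

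SEPTIN5, a septin of neurons and platelets that binds the machinery of exocytosis, was the only member with every cold array above every control array. Its log2 ratio was -0.02 to 0.08 in control, with a median of 0.04, and 0.42, 0.08, 0.15 and 0.11 in the cold replicates. Cold replicate 1 stood above the other arrays, and cold replicate 2 lay just above the highest control. The change of 0.16 (SE 0.08) had an exact permutation p of 0.00476 but an unadjusted p of 0.0786 and an adjusted p of 0.253 in limma, and 3.07% of all genes had groups that did not overlap with cold higher. Without cold replicate 1 the SEPTIN5 change was 0.080 (unadjusted p = 0.272 in limma). In the deposited value table it was 0.41 (unadjusted p = 0.0685 in limma). With Cy3 alone the SEPTIN5 change was -0.06 (SE 0.09, unadjusted p = 0.552 in limma) with overlapping groups, so that the higher ratio was not seen in the ferret's own channel. For the 3 probes used, the reference channel cleared its background on 3 to 9 of the 10 arrays.

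The next gene to SEPTIN5 in the RefSeq table is GP1BB, which encodes a subunit of the platelet receptor for von Willebrand factor, with 104 bases between them. The mean log2 ratio of GP1BB was 0.50 in control and 1.52 in cold, a change of 1.02 (SE 0.28, unadjusted p = 0.00374, adjusted p = 0.0899 in limma), and the groups overlapped. Platelet markers were higher in cold in 7 of 7 genes tested, 3 of them with an unadjusted p under 0.01 (42.9%, against 8.64% of all genes). Their median change was 0.87, and 0.19 under median centring. Besides GP1BB these were GP9, another subunit of the same receptor, with a change of 0.87 (SE 0.19, unadjusted p = 0.000674), and TREML1, a receptor of platelet granules, with a change of 1.27 (SE 0.33, unadjusted p = 0.00282). With Cy3 alone none of the 7 had an unadjusted p under 0.01, with changes of 0.97, 1.27 and 1.47 for GP9, GP1BB and TREML1 (unadjusted p of 0.0190, 0.0516 and 0.0166 in limma). The mean log2 ratio of the list was -0.05 to 1.37 in the control arrays and 0.89 to 1.81 in the cold arrays. The part of platelet RNA in the SEPTIN5 values was not tested.

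SEPTIN9, the only one of the 10 members in the SEPTIN3 group, joins the longer form of the rod and links septins to microtubules and actin. Its Cy3 signal before normalization was 21527 to 36344 intensity units. Its log2 ratio was -0.28 to 0.05 in control, with a median of -0.09, and 0.02, -0.08, -0.08 and -0.24 in the cold replicates. The groups overlapped, and the change of 0.02 (SE 0.09) had an adjusted p of 0.932 in limma. Of its 16 probes, 8 were higher and 8 lower in cold. With Cy3 alone the SEPTIN9 change was -0.29 (SE 0.11, unadjusted p = 0.0239, adjusted p = 0.144 in limma) and all probes were lower (-0.38 to -0.21), while its log2 Cy5 signal changed by -0.15 after quantile normalization.

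The SEPTIN6 group was represented by SEPTIN6, SEPTIN8 and SEPTIN10, which sit next to SEPTIN7 in the rod. The log2 ratio of SEPTIN6 was -0.23 to 0.06 in control, with a median of -0.01, and -0.13, 0.01, -0.34 and -0.0045 in cold. Its change was -0.06 (SE 0.10, adjusted p = 0.756 in limma), and with Cy3 alone it was -0.23 (SE 0.12, unadjusted p = 0.0710). The groups overlapped by both measures. These values rest on 3 probes, 1 for each target sequence, at a Cy3 signal of 182 to 360 intensity units.

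SEPTIN8, which takes part in vesicle traffic in neurons, had log2 ratios of -1.69 to -0.52 in control, with a median of -0.78, and of -1.86, -1.08, -1.45 and -1.58 in cold. SEPTIN10, a less studied member, had log2 ratios of -1.61 to -0.52 in control, with a median of -0.76, and of -2.37, -1.03, -1.71 and -1.54 in cold. For both genes, control replicates 4 and 5 lay among the cold arrays. The ratio changed by -0.54 for SEPTIN8 (SE 0.24, unadjusted p = 0.0451, adjusted p = 0.193) and by -0.70 for SEPTIN10 (SE 0.29, unadjusted p = 0.0346, adjusted p = 0.173) in limma, where 24.7% of all genes had an unadjusted p under 0.05. All 6 probes of either gene had a lower ratio in cold. The changes were smaller in the deposited value table (-0.11 for SEPTIN8 and -0.044 for SEPTIN10), with the scanner software's processed signals (-0.30 and -0.43) and within slide position 2 (-0.20 and -0.37). They were larger within slide position 1 (-0.70 and -0.88) and with array weights (-0.69 and -0.83). Where both dyes were well above background on all 10 arrays, SEPTIN8 changed by -0.31. Without control replicate 5 the change of SEPTIN8 was -0.69, with an unadjusted p of 0.00539 and so under 0.01 in limma.

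These differences were not seen in the Cy3 signal. With Cy3 alone SEPTIN8 changed by -0.03 (SE 0.09, unadjusted p = 0.762 in limma) and SEPTIN10 by 0.24 (SE 0.08, unadjusted p = 0.0139, adjusted p = 0.115), so that SEPTIN10 turned direction. The SEPTIN10 value rests in part on dim probes that passed the filter mainly through the cold arrays. Cy3 was well above background on 1 control and 3 cold arrays for 1 probe, and on 2 and 4 for another. The only SEPTIN10 probe with Cy3 well above background on all 10 arrays changed by 0.078 in Cy3, with overlapping groups. Before normalization, the Cy5 signal of SEPTIN10 was 55.8 to 157 intensity units in control and 465, 77.8, 235 and 174 in the cold replicates, whereas its Cy3 signal was 141 to 196 units over all arrays. The arrays with the brightest Cy5 signal of SEPTIN10 (cold replicates 1 and 3) had its lowest ratios. Raw Cy5 was brighter in cold for other septins too, with a median of 74.5 units in control and 267 in cold for SEPTIN7. After quantile normalization, log2 Cy5 changed by 0.012 for SEPTIN8 and 0.089 for SEPTIN10 (unadjusted p of 0.843 and 0.158 in limma). The part of the reference channel in the septin ratios was not tested.

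**Figure D2:**
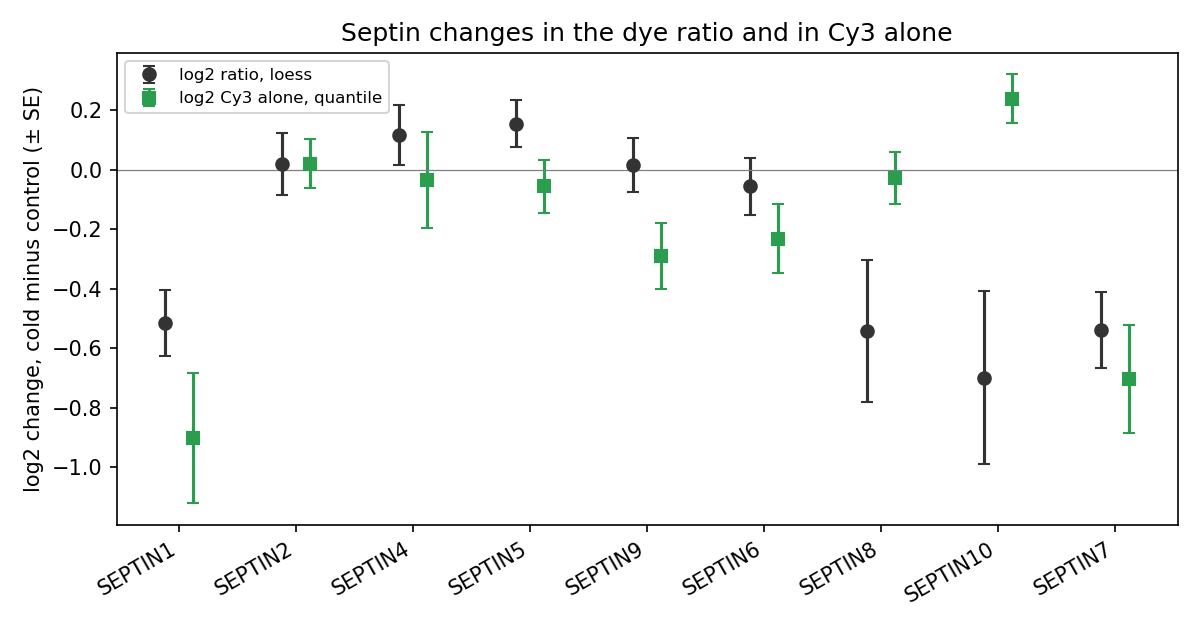
The change in cold (log2, ± SE) is drawn for each septin as the loess-normalized dye ratio (circles) and as quantile-normalized Cy3 alone (squares), from 6 control and 4 cold arrays. SEPTIN1 and SEPTIN7 are below 0 by both measures, whereas the change of SEPTIN10 is -0.70 as a ratio and 0.24 as Cy3.

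SEPTIN7 (gene ID 101693981), the shared core of septin rods, had log2 ratios of -0.20 to 0.37 in the control arrays, with a median of 0.32. In cold replicates 1 to 4 its log2 ratio was -0.27, -0.27, -0.44 and -0.43. The cold arrays were close together. Among the controls, replicates 2 and 3 were lower than the other 4, and replicate 3, the lowest control for SEPTIN7, was the highest for SEPTIN1. The mean of the control arrays was 0.18 ± 0.25 (SD, n = 6) and that of the cold arrays -0.35 ± 0.10 (SD, n = 4). The SEPTIN7 change of -0.54 (SE 0.13) had an unadjusted p of 0.00144 and an adjusted p of 0.0736 in limma, and an exact two-sided permutation p of 0.00952. All 12 probes were lower in cold, by -0.79 to -0.27.

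With Cy3 alone, SEPTIN7 had a log2 signal of 9.78 to 10.6 in control and of 9.41 to 9.75 in cold. The lowest control thus lay just above the highest cold array. The change of log2 Cy3 was -0.70 (SE 0.18, unadjusted p = 0.00239, adjusted p = 0.0602 in limma), and all 12 probes were lower, by -0.80 to -0.64. After quantile normalization the log2 Cy5 signal of SEPTIN7 changed by 0.04. Before normalization, its Cy3 signal was 747 to 1821 intensity units in control and 913, 878, 768 and 802 in the cold replicates. Control replicates 2 and 3, at 803 and 747 units, were as low as the cold arrays on that scale.

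SEPTIN7 had 3 target sequences, XM_004741974, XM_004741975 and XM_004741977, which are transcript models of the same gene and so are not independent. XM_004741975 had log2 ratios of -0.02 to 0.47 in control and of -0.40, -0.45, -0.32 and -0.30 in cold, a clear gap between the groups. Its change was -0.60 (SE 0.11, unadjusted p = 0.00016, adjusted p = 0.0569 in limma), which placed it at rank 87 by p among the 32400 target sequences tested. XM_004741977 had log2 ratios of -0.12 to 0.53 in control and of -0.18, -0.14, -0.41 and -0.57 in cold. Its change was -0.58 (SE 0.15, unadjusted p = 0.00222, adjusted p = 0.0798), and the groups again did not overlap. XM_004741974 had log2 ratios of -0.45 to 0.37 in control and of -0.22, -0.22, -0.61 and -0.42 in cold, where control replicate 3 lay below cold replicates 1, 2 and 4. Its change was -0.43 (SE 0.16, unadjusted p = 0.0198, adjusted p = 0.140).

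The gene name of the second sequence depends on the annotation. In the RefSeq gene table used here, XM_004741975 is a SEPTIN7 transcript, and SEPTIN1 is represented by XM_004773889. The study named the former sequence as septin 1 and chose it on these arrays, so that its direction here is not independent evidence. The same holds for the SEPTIN7 gene values and for the counts that include it.

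Over the 23 septin target sequences tested, 3 had an unadjusted p under 0.01, namely XM_004741975, XM_004741977 and XM_004773889, against 2785 (8.6%) of all target sequences (3.47% with cold lower), and none (0%) passed the adjusted threshold. The same 3 had cold arrays below all control arrays, against 2.15% of all target sequences. The 5 target sequences of SEPTIN4 changed by 0.05 to 0.19 and the 4 of SEPTIN9 by -0.05 to 0.06. The 3 measured sequences of SEPTIN8 changed by -0.60 to -0.49, the 2 of SEPTIN10 by -0.84 and -0.56, and the 3 of SEPTIN6 by -0.16 to 0.03.

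Whether the target sequences of a septin changed by different amounts was tested with limma's diffSplice. None of the 6 septins with several measured sequences was called, with unadjusted p from 0.528 to 0.961 and an adjusted p of 1 for each. For SEPTIN7 the unadjusted p was 0.683. Over all 3228 genes with several sequences, 1 passed the adjusted threshold of 0.05 (0.031%) and 20 had an unadjusted p under 0.01 (0.62%).

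**Figure D3:**
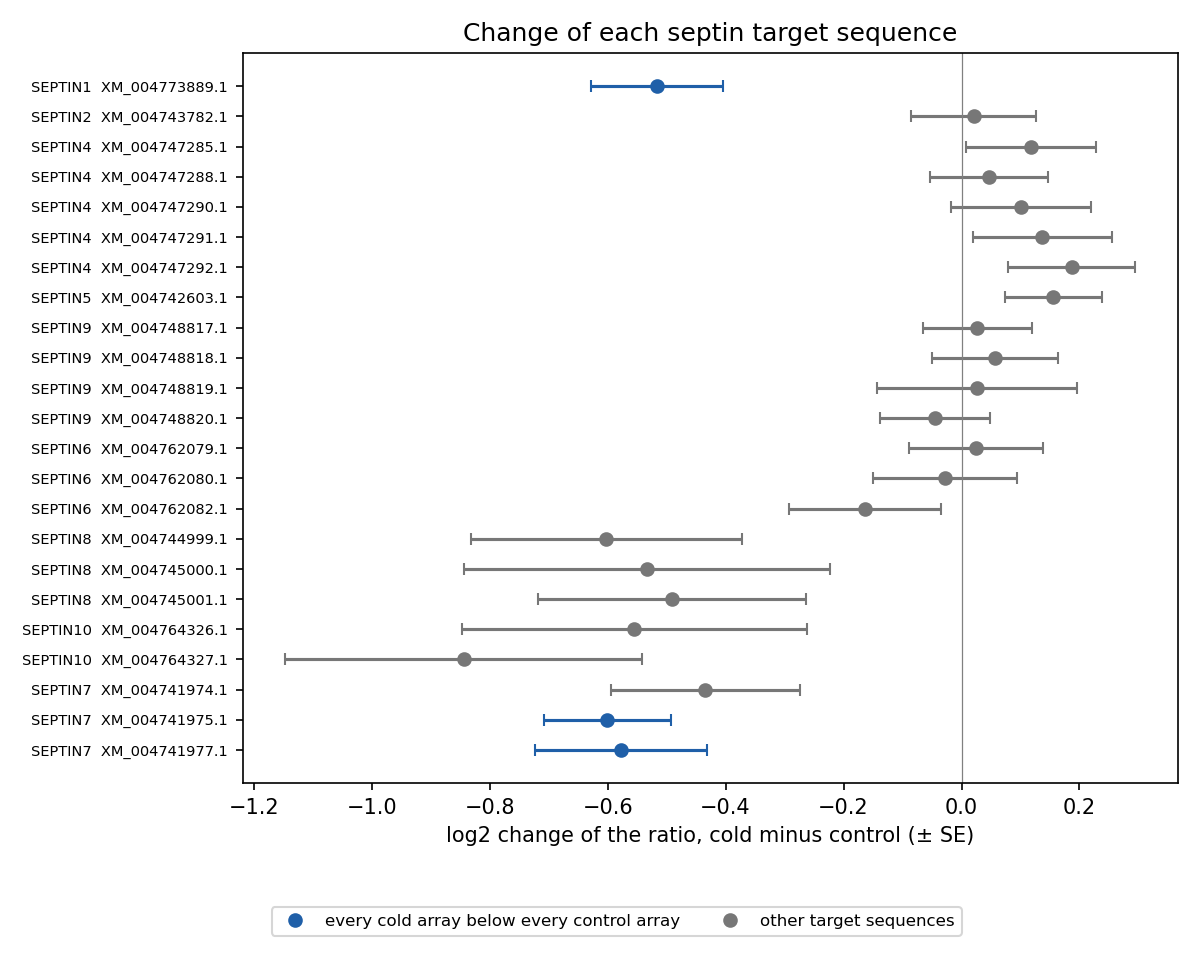
The change in cold of the log2 ratio (± SE) is drawn for each of the 23 septin target sequences tested, by gene, from 6 control and 4 cold arrays. The sequence of SEPTIN1 and 2 of the 3 sequences of SEPTIN7, drawn in blue, have every cold array below every control array.

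The arrays occupied 2 positions on their slides, and each position held both groups. With the position as a block, the change was -0.51 for SEPTIN1 and -0.51 for SEPTIN7, with unadjusted p of 0.00131 and 0.0021 in limma. Within position 1 (4 control and 2 cold arrays) the change was -0.35 for SEPTIN1 (unadjusted p = 0.0311) and -0.51 for SEPTIN7 (unadjusted p = 0.0110). Within position 2 (2 control and 2 cold arrays) it was -0.73 for SEPTIN1 (unadjusted p = 0.0104) and -0.51 for SEPTIN7 (unadjusted p = 0.0684). The direction held in both positions, and neither gene passed the unadjusted threshold of 0.01 within a position.

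**Figure D4:**
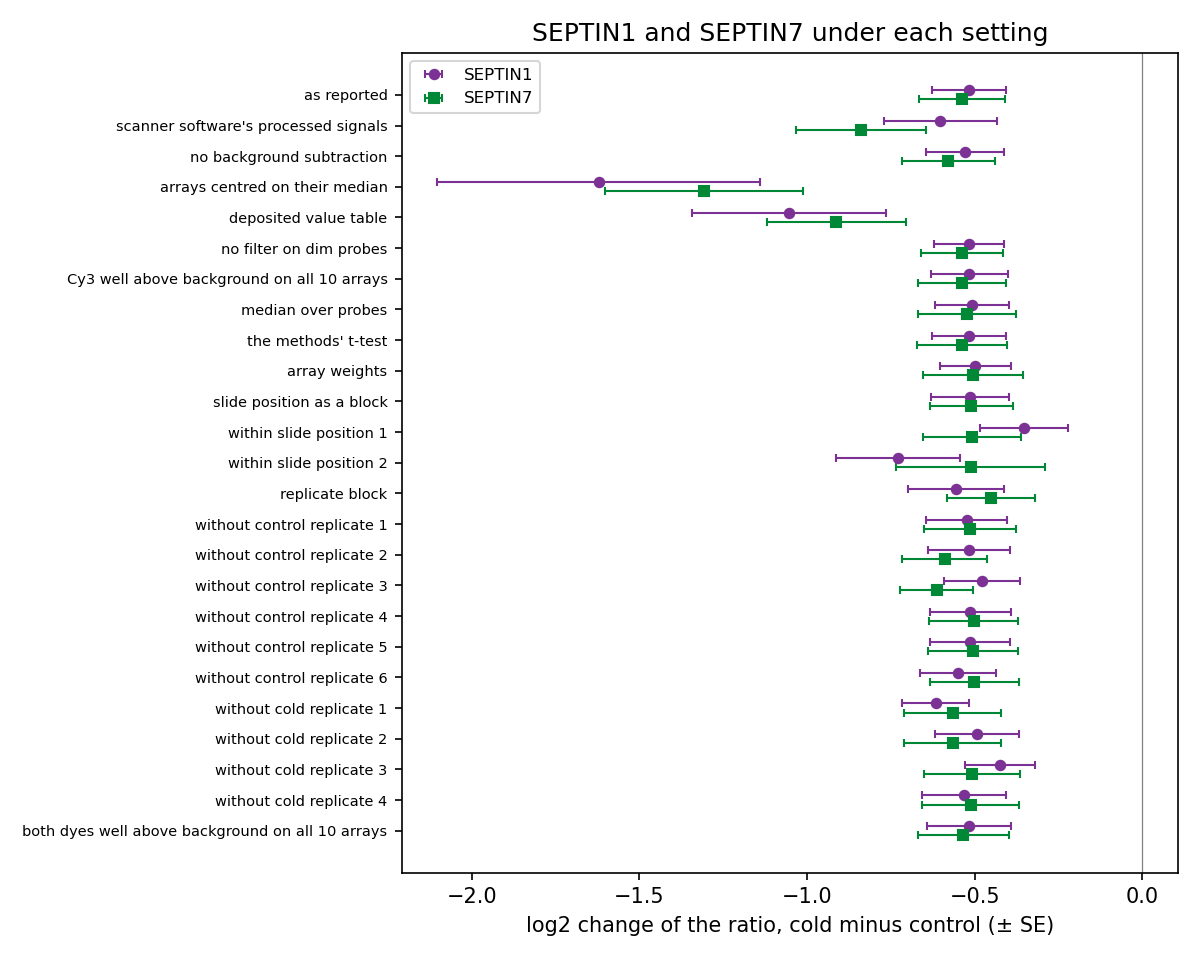
The change in cold of the log2 ratio (± SE) of SEPTIN1 (circles) and SEPTIN7 (squares) is drawn as reported and under each other processing of the ratio, each slide position and each array left out. All values are below 0, and the ones furthest from 0 are those of arrays centred on their median, -1.62 for SEPTIN1 and -1.31 for SEPTIN7.

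Markers of blood cell types moved between the groups as well. Of 13 T cell markers tested, 12 were lower in cold and 1 higher, with a median change of -0.56 (-1.68 under median centring, -1.09 in the deposited value table and -0.78 with Cy3 alone), and 2 of the lower ones had an unadjusted p under 0.01 (15.4%, against 8.64% of all genes in either direction). With Cy3 alone 8 of the 13 had an unadjusted p under 0.01, all lower, against 9.84% of all genes. Their mean log2 ratio was 0.25 to 0.49 in the control arrays and -0.70 to 0.17 in the cold arrays, so that the groups did not overlap for this list either. CD3E, a chain of the T cell receptor complex, changed by -0.56 (SE 0.19, unadjusted p = 0.0128). LCK, the kinase that the receptor signals through, changed by -0.75 (SE 0.18, unadjusted p = 0.0015), and CCR7, the homing receptor of naive T cells, by -0.67 (SE 0.21, unadjusted p = 0.00874). In such bulk samples fewer cells of a type and less RNA per cell cannot be told apart, and the part of T cell content in the SEPTIN1 and SEPTIN7 changes was not tested. Without cold replicate 3, the median change of the T cell markers was -0.32, and those of SEPTIN1 and SEPTIN7 were -0.42 and -0.51.

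Of 8 B cell markers, 6 were lower and none passed the unadjusted threshold, with a mean log2 ratio over the list of -0.06 to 1.36 in control and 0.38 to 0.88 in cold. Their median change was -0.16, and it was -0.97 under median centring, -0.56 with Cy3 alone and -0.54 in the deposited value table. The 6 markers of NK and cytotoxic cells had a median change of 0.06, which turned to -0.92 under median centring, -0.42 in the deposited value table and -0.19 with Cy3 alone, and a mean of 0.17 to 0.71 in control and -0.08 to 0.81 in cold. The NK median was also below 0 without cold replicate 4 (-0.15), cold replicate 2 (-0.10), control replicate 2 (-0.067) or control replicate 4 (-0.054). Myeloid markers were mostly higher in cold. Of 7 monocyte markers, 6 were higher in cold, with a median change of 0.60 that turned to -0.46 where arrays were centred on their median and was 0.061 in the deposited value table, and a mean of 0.04 to 0.60 in control and 0.52 to 1.20 in cold. CD86, a costimulatory receptor, changed by 0.73, the matrix proteoglycan gene VCAN by 1.29 and the lipopolysaccharide co-receptor CD14 by 0.66 (unadjusted p of 0.00143, 0.00201 and 0.00623 in limma).

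Of 6 neutrophil markers, which a Ficoll gradient should deplete, all 6 were higher, with a median change of 0.82 that turned to -0.13 under median centring and was 0.39 in the deposited value table. Their mean was 0.71 to 1.42 in control and 1.70 to 2.01 in cold, without overlap. S100A9 and S100A8, the calprotectin genes, changed by 1.15 and 1.10. All 4 erythroid markers were lower, with a mean of 0.18 to 1.12 in control and -0.85 to -0.06 in cold. Among them HBM, a globin gene, changed by -2.56 (SE 0.44, adjusted p = 0.0576 in limma), rank 50 by p among all genes. Centring arrays on their median moved the median change of all genes to -0.43.

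Partners and regulators of septins were split between the directions. Of 24 genes listed, among them CDC42, its effectors of the CDC42EP family, anillin and the kinases of cytokinesis, 14 were tested. Of these, 8 were higher and 6 lower in cold, the median change was 0.07, and none had an unadjusted p under 0.01, against 8.64% of all genes. Tubulins and microtubule proteins, to which septins bind, were higher in 7 and lower in 5 of 12 genes tested, with a median change of 0.08 and none under the unadjusted threshold. With Cy3 alone, 1 gene of either list passed it, the tubulin TUBB6 (change of 1.09, unadjusted p = 4.91e-05 in limma, against 0.62 as a ratio) and ANLN, which encodes anillin (0.41, unadjusted p = 0.000964, against -0.040 as a ratio). Both medians turned below 0 under median centring (-0.51 for the partners and -0.78 for the tubulins) and in the deposited value table (-0.084 and -0.28). That of the partners was also -0.0052 without cold replicate 2, -0.0047 without cold replicate 4 and 0.13 without cold replicate 1, and that of the tubulins ranged from 0.030 (without control replicate 4) to 0.17 (without cold replicate 1).

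Actin and myosin genes of the cell cortex mostly had the opposite sign to SEPTIN1 and SEPTIN7. Of 22 tested, 21 were higher in cold by a median of 0.32, and the median turned to -0.62 under median centring and to -0.10 in the deposited value table. The unadjusted threshold was passed by 3 of the 22 (13.6%, against 8.64% of all genes). DIAPH1, a formin that elongates actin filaments, changed by 0.32 (SE 0.08, unadjusted p = 0.00166) without overlap of the groups. ACTN1, an actin crosslinker, changed by 0.88 (SE 0.26, unadjusted p = 0.00585), and CAPZB, a subunit of the protein that caps filament ends, by 0.36 (SE 0.11, unadjusted p = 0.00683). None of the 3 passed the adjusted threshold in limma. With Cy3 alone the median of the list was 0.19 and these 3 had unadjusted p of 0.0408, 0.0159 and 0.179, whereas 4 other members (GSN, MYL6, MYH10 and TPM4, named for passing here) were higher with an unadjusted p under 0.01. The platelet, neutrophil and monocyte lists, with medians of 0.87, 0.82 and 0.60 (0.19, -0.13 and -0.46 under median centring), were higher in the same arrays, and their part in the actin and myosin values was not tested.

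The genes whose log2 ratios over the 10 arrays were most like those of SEPTIN7, among 8340 other genes with a symbol, were CUNH3orf38 (Pearson's r = 0.950), the condensin subunit SMC4 (r = 0.947) and the chromatin-tethering factor PSIP1 (r = 0.946). Those most like SEPTIN1 were NOL9 (r = 0.964) and LAS1L (r = 0.949), which take part in ribosomal RNA processing, and TRAF3IP3 (r = 0.937). The 10 arrays hold both groups, so that these values include the difference between cold and control. The 6 genes were lower in cold, by -0.80 (SMC4) to -0.24 (LAS1L).

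SEPTIN12, a testis septin of the SEPTIN3 group outside the 10 members, had Cy3 well above background on 8 or 9 arrays for its 8 probes and Cy5 on 1 at most. The reference was thus at background, so that its ratios are not given array by array. The change of the ratio was 0.38 (SE 0.12, unadjusted p = 0.00744, adjusted p = 0.107 in limma). The groups overlapped, and all 8 probes were higher in cold. With Cy3 alone the groups overlapped, and the change was 0.54 (SE 0.24, unadjusted p = 0.0433, adjusted p = 0.188 in limma).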

How the data were processed

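RNA of PBMC from 6 control and 4 cold-exposed ferrets was measured on 10 two-colour arrays, 1 per ferret, on separate slides scanned on 1 day. The authors deposited, for each array, the intensity values of Agilent Feature Extraction 10.7.3.1, not normalized, with flags (a score of 0 or 1 per spot) for spots well above background, saturated or outlying. The authors also deposited a log2 value per target sequence. Set against the intensities, that table follows log2 Cy3 minus log2 Cy5 without background subtraction (r = 0.999 after centring rows and columns). Its column medians are 7.87 to 8.78, and how its constants were set is not given in the sources used here.

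Median spot signals, used in place of means, were corrected with normexp (offset 50) in limma 3.58.1 (R 4.3.3). After removal of control spots, loess (span 0.3, 4 iterations) was applied within each array to log2 Cy3/Cy5. Outlier spots were then left out. The filter kept the 111051 probes whose Cy3 signal cleared background on 4 or more arrays in a share of 0.5 or more of the spots. Probes were averaged per gene or per target sequence. Of 45328 target sequences, 21104 received a gene name from RefSeq's ferret table. No coordinates are given, since the build behind the probes is not given in the sources used here. Groups were compared with limma (lmFit, eBayes) and Benjamini-Hochberg adjustment over 26303 genes or 32400 target sequences, leaving out 2 genes with a missing value, and single genes also with an exact permutation test over 210 splits. No column of the arrays was left unused for want of a sample. The number of arrays limits the precision of every value.

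Named genes were the septins of the rule with all target sequences, the 3 genes most like SEPTIN1 and SEPTIN7, and from each list at most 4 genes with an unadjusted p under 0.01 in order of p, plus defining markers, of which 1 is not reported here. The members and lists were chosen with earlier results of these data known. Alternatives were the scanner software's processed signals, no background subtraction, median centring, Cy3 alone, the deposited table, 2 other filters, the median over probes, the methods' t-test, array weights, slide position, the replicate number as a block and each array left out. A filter on both dyes was added after seeing the data. The fit was tested on simulated data.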

Additional observations from a re-analysis of the deposited data

How the results depend on the processing

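SEPTIN1 and SEPTIN7 were lower in cold under all 25 alternatives, by -1.62 to -0.35 and -1.31 to -0.45, and neither reached an adjusted p under 0.05 in any of them. With the replicate number as a block, although the numbers do not pair the arrays (same-numbered arrays had deviations with r of -0.30, 0.54, 0.10 and -0.19, above 0.1 for 1 number only), the change was -0.56 for SEPTIN1 (unadjusted p = 0.00723) and -0.45 for SEPTIN7 (unadjusted p = 0.0123), the latter no longer under 0.01, while SEPTIN8 passed it (-0.62, unadjusted p = 0.00935), and SEPTIN9 changed by -0.0084. Leaving out each array in turn gave -0.62 to -0.42 for SEPTIN1, -0.61 to -0.50 for SEPTIN7, -0.031 to 0.091 for SEPTIN2, 0.071 to 0.18 for SEPTIN4, 0.080 to 0.19 for SEPTIN5, -0.69 to -0.42 for SEPTIN8, -0.91 to -0.46 for SEPTIN10, -0.099 to 0.019 for SEPTIN6 and -0.023 to 0.065 for SEPTIN9. In limma, XM_004741975 passed the adjusted threshold without control replicate 5 (adjusted p = 0.0404) or cold replicate 2 (adjusted p = 0.0374) and with Cy3 well above background on all 10 arrays (adjusted p = 0.0454).

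Directions that turned belonged to septins that limma had not called. Under median centring, SEPTIN2, SEPTIN4, SEPTIN5 and SEPTIN9 changed by -0.96, -0.73, -0.087 and -1.09. In the deposited table, SEPTIN2, SEPTIN4, SEPTIN9 and SEPTIN6 changed by -0.46, -0.26, -0.50 and 0.46. With Cy3 alone, SEPTIN4, SEPTIN5, SEPTIN9 and SEPTIN10 changed by -0.034, -0.055, -0.29 and 0.24. SEPTIN9 changed by -0.12 with the scanner software's processed signals, -0.0060 without background subtraction, -0.0055 by the median over probes, -0.020 with array weights and -0.14 within slide position 2. SEPTIN2 changed by -0.0082 with slide position as a block and -0.079 within position 1. The cause was not tested.

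The count of septins with an unadjusted p under 0.01 was 2 as reported, 0 within either slide position, and 2 to 3 with each array left out. For septin target sequences it was 3 as reported, 5 with Cy3 alone, 1 and 0 within slide positions 1 and 2, and 3 to 6 with each array left out (6 without control replicate 5). No septin was called by diffSplice (0 to 0 with each array left out). Genes of the lists under the threshold numbered 14 as reported, 6 under median centring, 23 with Cy3 alone, 8 by the methods' t-test, 9 and 9 within the slide positions, 27 with the replicate block and 8 to 20 with each array left out (8 without cold replicate 3). All genes under an unadjusted 0.01 numbered 2272 as reported, 1505 with processed signals, 1163 under median centring, 1093 in the deposited table, 1021 and 405 within the slide positions, 1119 where both dyes were well above background, and 1275 to 3386 with each array left out (1425 without control replicate 1, 1504 without control replicate 2, 1275 without cold replicate 3). Genes with an adjusted p under 0.05 numbered 0 as reported, 741 with Cy3 alone, 115 with Cy3 well above background on all 10 arrays, 5 with slide position as a block, 27 where both dyes were, and 0 to 1272 with each array left out (633 without control replicate 5, 12 without cold replicate 1, 1272 without cold replicate 2). Target sequences numbered 0, 919 with Cy3 alone, 128 with Cy3 well above background on all 10 arrays, 6 with array weights and 0 to 1502 with each array left out (586 without control replicate 5, 14 without cold replicate 1, 1502 without cold replicate 2). The share lower in cold among genes under an unadjusted 0.01 was 39.7% as reported, 57.5% with processed signals, 81.5% under median centring, 53.8% in the deposited table, 50% where both dyes were well above background, 7.65% within slide position 2 and 31.5 to 56.4% with each array left out (31.5% without cold replicate 1, 56.4% without control replicate 5). The reference channel was dim for SEPTIN5, SEPTIN6, SEPTIN7, SEPTIN8, SEPTIN10 and SEPTIN12, which limits their ratios.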
